A study of Mus musculus with 30 samples.

Results

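The RGS genes encode the regulators of G-protein signalling, and this account follows 10 of them, Rgs2, Rgs3, Rgs4, Rgs5, Rgs10, Rgs11, Rgs12, Rgs14, Rgs16 and Rgs19, in the abdominal aorta of the mouse. The genes were chosen by name. Each was measured as the sum of the FPKM values (a count of fragments divided by transcript length and by the size of the library, so a level per length) of its transcripts listed for all 30 libraries. Of the 10 genes, 9 had such transcripts and Rgs11 was not analysed here. The files gave 14379 genes by the same sum, and 13223 of them reached at least 1 FPKM in at least 5 libraries and were tested. Among the members, 7 were tested, while Rgs14 and Rgs16 stayed below that filter and are given as levels.

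All mice were wild-type C57BL/6 animals treated for 28 days, with 5 libraries in each of 6 groups. The AngII+ETH, AngII+BAI and AngII+GAS groups received angiotensin II at 500 ng/kg/min together with ethoxysanguinarine, baicalin or gastrodin, each at 5 mg/kg/day. The AngII+VAL group received the same angiotensin II dose with valsartan, a blocker of the type 1 angiotensin receptor, at 10.4 mg/kg/day. The AngII group received angiotensin II at 500 ng/kg/min with saline as its other treatment, and the Control group received saline alone. No source used here gave the age of the mice. The series title concerns the lowering of the blood pressure that angiotensin II raises. The labels do not say whether the libraries came from separate animals, so that p-values measure the spread between these samples.

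Receptors for angiotensin II, endothelin and noradrenaline act through heterotrimeric G proteins, whose alpha subunit signals while it holds GTP. RGS proteins bind that subunit and speed the hydrolysis of its GTP, which ends the signal. The R4 subfamily (here Rgs2, Rgs3, Rgs4, Rgs5 and Rgs16) consists mostly of small proteins that act on the Gq and Gi/o classes. The R12 subfamily holds Rgs10, Rgs12 and Rgs14, the RZ subfamily holds Rgs19, and the R7 subfamily, whose members pair with the G beta subunit Gnb5, holds Rgs11.

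The tissue label was checked against markers of smooth muscle, of which all 12 were tested, and their summed level was 1794 to 13760 FPKM over the libraries. Depth, read from the low values, was 70.0 to 80.7 M reads per library (M, megareads). Some libraries stood apart in the markers of other cells, given as scores (the mean log2(FPKM + 1) of a list). AngII+BAI 3 and AngII+BAI 5 had the lowest smooth muscle scores of all libraries (5.99 and 6.59) and the highest macrophage scores (6.98 and 6.26). AngII 1, AngII 4 and AngII 5 had neuron scores of 5.29, 3.66 and 5.68, against 0.57 to 2.43 in Control. The highest neuron scores of the other groups were 4.82 (AngII+ETH 1), 4.08 (AngII+VAL 4), 3.44 (AngII+BAI 5) and 2.72 (AngII+GAS 2). All 5 AngII+VAL libraries had skeletal muscle scores of 5.21 to 7.05, against 0.83 to 2.49 in AngII and 0.98 to 7.14 in Control. AngII+ETH 1 and AngII+BAI 3 reached 5.92 and 6.44. Fat markers were also high, at 545 to 5726 FPKM (brown adipocyte) and 2626 to 7416 FPKM (white adipocyte), summed per library. Brown adipocyte scores were 4.73 to 6.50 in AngII and 5.94 to 7.03 in Control. Library numbers follow the order of deposit and pair nothing. In whole tissue, fewer cells of a type and less RNA per cell cannot be told apart.

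The members lie on 7 chromosomes in the GENCODE M21 annotation of mm10, with 4 of the 10 on chromosome 1. Rgs5 (ENSMUSG00000026678, chr1:169655501-169695813, plus strand) and Rgs4 (ENSMUSG00000038530, chr1:169741477-169747642, minus strand) are neighbours that point towards each other across 45.7 kb. Rgs2 (ENSMUSG00000026360, chr1:143999338-144004161, minus strand) and Rgs16 (ENSMUSG00000026475, chr1:153740349-153745468, plus strand) lie at lower coordinates on the same chromosome. Of 21 RGS family genes looked up, 11 are on chromosome 1.

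The 250 bases before the start of Rgs4, Rgs5 and Rgs2 are shown because the values of these members are given below for every library. The RefSeq table (GRCm38.p6) matched 8 of the 10 members with 12 promoters. Capitals mark the CCAAT box, the TATA element TATAAA, the cAMP response core TGACG and the GC box GGGCGG on either strand, and none of these matches overlapped another in the 3 sequences.
Rgs4, chr1:169747643-169747892, minus strand: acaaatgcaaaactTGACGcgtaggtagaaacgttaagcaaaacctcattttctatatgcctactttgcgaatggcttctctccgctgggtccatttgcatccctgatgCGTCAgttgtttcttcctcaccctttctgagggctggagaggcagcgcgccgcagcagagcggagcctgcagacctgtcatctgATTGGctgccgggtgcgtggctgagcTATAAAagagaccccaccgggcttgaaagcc
Rgs5, chr1:169655251-169655500, plus strand: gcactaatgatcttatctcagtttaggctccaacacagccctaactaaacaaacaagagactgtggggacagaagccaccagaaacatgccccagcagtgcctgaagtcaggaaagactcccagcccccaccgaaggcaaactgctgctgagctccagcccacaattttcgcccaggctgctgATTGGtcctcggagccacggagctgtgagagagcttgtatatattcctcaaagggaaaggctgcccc
Rgs2, chr1:144004150-144004399, minus strand: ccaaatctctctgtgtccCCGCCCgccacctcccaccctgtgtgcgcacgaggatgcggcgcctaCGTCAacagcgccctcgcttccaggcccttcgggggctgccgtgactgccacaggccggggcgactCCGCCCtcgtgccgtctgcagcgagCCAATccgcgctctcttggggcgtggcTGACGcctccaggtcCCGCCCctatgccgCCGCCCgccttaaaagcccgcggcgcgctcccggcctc
The Rgs4 window held TATAAA 31 bases before the start and CCAAT on the opposite strand from base 57. It held TGACG from base 236 and, on the opposite strand, from base 141. The Rgs5 window held a lone match, CCAAT on the opposite strand from base 67. The Rgs2 window held CCAAT from base 94 and TGACG from base 67. On the opposite strand it held TGACG from base 185 and GGGCGG from bases 232, 119, 52 and 38. Over all 32851 promoters of the table, the same windows held CCAAT in 33.8%, TATAAA in 12.4%, TGACG in 17.8% and GGGCGG in 32.7%. The CArG box, the element bound by serum response factor, was in 1.47% of all promoters and in 0 of the 12 member promoters. A match of letters is a description and no evidence of binding.

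Levels per length differed widely among the members. Rgs5 averaged 489 FPKM over the 30 libraries and ranked 75 of 14379 genes by mean level. It made up 49.3% to 91.2% of the FPKM summed over all measured RGS family genes of a library, with a median of 76.8%. Rgs4 averaged 34.8 FPKM, Rgs3 27.9 FPKM and Rgs2 26.9 FPKM. Rgs10 averaged 9.61 FPKM and Rgs19 7.44 FPKM. Rgs12 (1.20 FPKM), Rgs14 (0.81 FPKM) and Rgs16 (0.71 FPKM) were the lowest. The reads behind a value ran from 46365 to 356844 for Rgs5 and from 16 to 725 for Rgs16, where a floor of 3 reads corresponds to at most 0.0183 FPKM. Such floors cover counting error only.

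**Figure D1:**
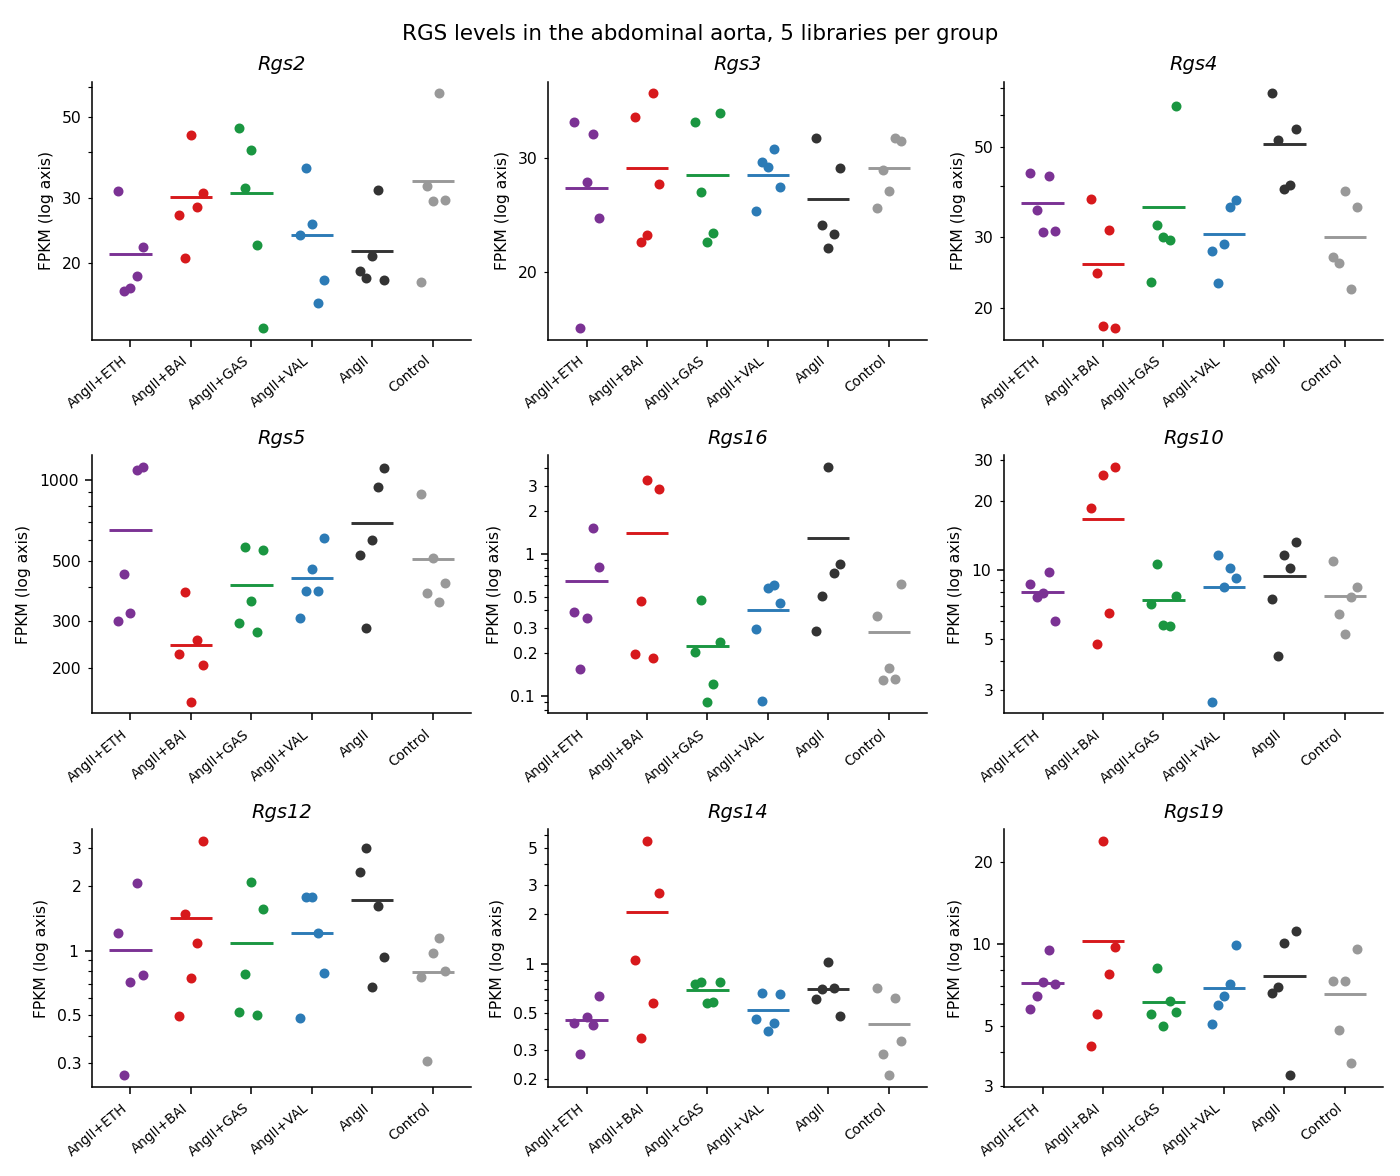
Level of each measured RGS member in FPKM (log axis) by group, with 1 point per library and a line at the group mean (n = 5). The AngII points of Rgs4 lie at 39.2 to 67.8 FPKM, above all Control points (22.3 to 39.0 FPKM), and the 2 highest Rgs14 points, 5.54 and 2.68 FPKM, are AngII+BAI libraries.

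Rgs4, an R4 member best known from neurons and heart, was the member with the smallest p in the test of any difference among the groups, while Rgs5 had larger fold changes in some comparisons. In AngII+ETH, Rgs4 measured 43.0, 34.9, 30.8, 42.3 and 30.9 FPKM. In AngII+BAI, Rgs4 measured 37.2, 24.3, 18.0, 31.1 and 17.9 FPKM. The lowest pair are AngII+BAI 3 and AngII+BAI 5, the libraries lowest in smooth muscle markers. In AngII+GAS, Rgs4 measured 23.1, 32.1, 29.96, 29.4 and 63.0 FPKM. In AngII+VAL, Rgs4 measured 27.6, 23.1, 28.7, 35.5 and 37.0 FPKM. AngII+GAS 5 stood far above the other AngII+GAS libraries. In AngII, Rgs4 measured 67.8, 52.0, 39.2, 40.2 and 55.3 FPKM. In Control, Rgs4 measured 26.8, 25.8, 39.0, 22.3 and 35.5 FPKM. Every AngII library was above every Control library, and every AngII+BAI and AngII+VAL library was below every AngII library. The AngII+ETH and AngII+GAS ranges overlapped that of AngII.

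By mean, Rgs4 was highest in AngII (50.9 ± 11.8 FPKM, SD, n = 5), then AngII+ETH (36.4 ± 5.96 FPKM), AngII+GAS (35.5 ± 15.7 FPKM), AngII+VAL (30.4 ± 5.77 FPKM), Control (29.9 ± 7.04 FPKM) and AngII+BAI (25.7 ± 8.43 FPKM). Of these neighbours in the order, AngII and AngII+ETH alone differed by more than the larger of their SDs.

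Fold changes were tested with limma on log2(FPKM + 1), with p-values adjusted by Benjamini-Hochberg over all 13223 genes and a threshold of 0.05. For AngII against Control, the question is what the infusion changed. The log2 fold change of Rgs4 was 0.75 (SE 0.23, adjusted p = 0.225), which did not pass. The median over all tested genes was 0.11 in that comparison, so that Rgs4 stood 0.64 above it. Rgs4 was the 1 member of 7 with every AngII library above every Control library, a pattern that 3.01% of all tested genes showed. In the AngII libraries with low neuron scores, AngII 2 and AngII 3 (0.60 and 0.87), Rgs4 was at 52.0 and 39.2 FPKM. Without the other AngII libraries the log2 fold change was 0.61 (limma adjusted p = 0.725). Of the 23 neuron markers 21 were tested, their summed level was 23.0 to 1773 FPKM in AngII and 22.4 to 145 FPKM in Control, and all 21 had a positive fold change with 0 past the threshold.

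For AngII+BAI against AngII, the log2 fold change of Rgs4 was -0.99 (SE 0.23) with an adjusted p of 0.0511 from limma, just outside the threshold. Rgs4 was again the 1 member of 7 with every library on one side, here lower, which 1.4% of all tested genes showed. The fold change passed the threshold in 6 of 20 alternatives, including quantile normalization (-1.09, adjusted p = 0.0347) and fits without AngII 3 (adjusted p = 0.0386), AngII+BAI 1 (adjusted p = 0.0334) or AngII+BAI 2 (adjusted p = 0.0462). Rgs4 did not pass with neuron and skeletal muscle scores as terms, nor without AngII 1, AngII 4 and AngII 5 together. Over the alternatives the limma adjusted p ran from 0.0334 to 0.642. Without AngII+BAI 3 and AngII+BAI 5 the log2 fold change was -0.69 (adjusted p = 0.132). With smooth muscle and macrophage scores as terms, an alternative chosen after seeing the data, it was -0.59 (adjusted p = 0.112). All 21 tested neuron markers had a negative fold change in AngII+BAI against AngII (median -1.45), with 0 past the threshold.

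The other compounds were each compared with AngII in the same way, to ask what each changed under the infusion. Rgs4 had a log2 fold change of -0.72 in AngII+VAL against AngII (SE 0.23, limma adjusted p = 0.248). Every AngII+VAL library was lower, as in 2.42% of all tested genes. With neuron and skeletal muscle scores as terms this value was -0.40 (adjusted p = 0.999). The 13 tested skeletal muscle markers summed to 758 to 4055 FPKM in AngII+VAL and 15.3 to 136 FPKM in AngII. In AngII+GAS against AngII the log2 fold change was -0.56 (SE 0.23, adjusted p = 0.275 by limma), and in AngII+ETH against AngII it was -0.46 (SE 0.23, adjusted p = 0.994 by limma). The medians over all tested genes were -0.12 for AngII+VAL, -0.17 for AngII+GAS and -0.09 for AngII+ETH. The AngII libraries enter all of these comparisons, so that the 5 values are not independent.

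Rgs5, known as a marker of pericytes and of the smooth muscle of arteries, was the most abundant member in every library and varied most in absolute terms. In AngII+ETH, Rgs5 measured 299, 445, 321, 1088 and 1114 FPKM. In AngII+BAI, Rgs5 measured 226, 384, 150.1, 255 and 205 FPKM. The AngII+ETH libraries fell into a low and a high set, while the AngII+BAI libraries were all at or below 384 FPKM. In AngII+GAS, Rgs5 measured 295, 565, 355, 273 and 549 FPKM. In AngII+VAL, Rgs5 measured 306, 388, 465, 387 and 606 FPKM. These groups spanned similar ranges. In AngII, Rgs5 measured 524, 283, 598, 944 and 1109 FPKM. In Control, Rgs5 measured 886, 381, 514, 353 and 413 FPKM. AngII 2 was within the AngII+BAI range, and the other AngII libraries were above it.

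The order of means was AngII (692 ± 332 FPKM, SD, n = 5), AngII+ETH (653 ± 413 FPKM), Control (510 ± 219 FPKM), AngII+VAL (430 ± 113 FPKM), AngII+GAS (407 ± 140 FPKM) and AngII+BAI (244 ± 87.3 FPKM). AngII+GAS and AngII+BAI were the neighbours that differed by more than the larger of their SDs. In AngII+BAI against AngII the log2 fold change of Rgs5 was -1.41 (SE 0.39, limma adjusted p = 0.101). It passed the threshold without AngII 2 (-1.70, adjusted p = 0.0348) or without AngII+BAI 2 (-1.60, adjusted p = 0.0462), and the adjusted p ran from 0.0348 to 0.863 over the alternatives. Without AngII+BAI 3 and AngII+BAI 5 it was -1.14 (adjusted p = 0.151).

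In AngII+BAI against Control, Rgs5 had a log2 fold change of -1.04 (SE 0.39, limma adjusted p = 0.143). Its log2 fold change was -0.68 in AngII+GAS against AngII (SE 0.39, adjusted p = 0.424), -0.57 in AngII+VAL against AngII (SE 0.39, adjusted p = 0.612) and -0.17 in AngII+ETH against AngII (SE 0.39, adjusted p = 0.994), all by limma. The value for AngII+ETH changed sign without AngII 5, AngII+ETH 1 or AngII+ETH 3. Without AngII 1, AngII 4 and AngII 5 together, the value was -0.82 for AngII+BAI, -0.081 for AngII+GAS and 0.028 for AngII+VAL against AngII.

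As lists, 12 of 12 smooth muscle markers had a negative fold change in AngII+BAI against AngII, with a median log2 fold change of -0.69 and 0 past the threshold. Their summed level was 1794 to 12590 FPKM in AngII+BAI, against 7173 to 9012 FPKM in AngII. Among pericyte and mural markers, 9 of 10 were negative in AngII+BAI with a median of -0.13, and 0 passed. In AngII+GAS against AngII, 12 of 12 smooth muscle markers (median -0.245) and 9 of 10 pericyte and mural markers (median -0.209) were negative too. Of the smooth muscle markers, 7 were negative in AngII+ETH and 8 in AngII+VAL against AngII. The part of tissue make-up in the levels of Rgs4 and Rgs5 was tested only through the score terms and left-out libraries given here, and with smooth muscle and macrophage scores as terms Rgs5 was at -1.08 (limma adjusted p = 0.177).

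Rgs2, the R4 member that prefers Gq and whose loss raises blood pressure in mice, ran the other way from Rgs4 in AngII. In AngII+ETH, Rgs2 measured 31.4, 16.8, 17.1, 18.5 and 22.2 FPKM. In AngII+BAI, Rgs2 measured 27.1, 20.7, 44.5, 28.5 and 31.0 FPKM. The AngII+ETH libraries other than the highest were all close to 20 FPKM. In AngII+GAS, Rgs2 measured 46.6, 32.0, 40.5, 22.4 and 13.4 FPKM. In AngII+VAL, Rgs2 measured 23.9, 36.3, 25.6, 15.6 and 18.0 FPKM. AngII+GAS had both a very high and the lowest value of all libraries. In AngII, Rgs2 measured 19.1, 18.3, 20.9, 31.5 and 18.0 FPKM. In Control, Rgs2 measured 17.9, 32.3, 29.5, 57.8 and 29.7 FPKM. The AngII libraries other than AngII 4 lay below 4 of the 5 Control libraries, but Control 1 was the lowest of both groups.

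Control had the highest mean (33.4 ± 14.7 FPKM, SD, n = 5), followed by AngII+GAS (31.0 ± 13.4 FPKM), AngII+BAI (30.4 ± 8.76 FPKM), AngII+VAL (23.9 ± 8.07 FPKM), AngII (21.6 ± 5.68 FPKM) and AngII+ETH (21.2 ± 6.10 FPKM), and no neighbours in this order differed by more than their SD. The log2 fold change of Rgs2 in AngII against Control was -0.54 (SE 0.30, limma adjusted p = 0.506). It was 0.46 in AngII+BAI against AngII (SE 0.30, adjusted p = 0.473) and 0.41 in AngII+GAS against AngII (SE 0.30, adjusted p = 0.522), both by limma. The value for AngII+BAI was 0.25 without AngII+BAI 3 and AngII+BAI 5 and 0.059 with smooth muscle and macrophage scores as terms. The value for AngII+GAS was 0.24 without AngII+GAS 1 and 0.67 without AngII+GAS 5, and that for AngII against Control was -0.33 without Control 4. Of the 8 tested brown adipocyte markers, 0 had a positive fold change in AngII against Control (median -0.75). Positive against AngII were 6 in AngII+ETH, 7 in AngII+BAI, 8 in AngII+GAS (median 0.76) and 7 in AngII+VAL, with 0 past the threshold. The part of fat in the level of Rgs2 was not tested. Against Control, Rgs2 was the member with the smallest p in AngII+ETH (-0.57, SE 0.30, limma adjusted p = 0.973) and in AngII+VAL (-0.43, SE 0.30, limma adjusted p = 1.0), and without Control 4 these were -0.36 and -0.21. In AngII+GAS against Control that member was Rgs4 (0.19, SE 0.23, limma adjusted p = 1.0), whose sign turned without AngII+GAS 5.

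**Figure D2:**
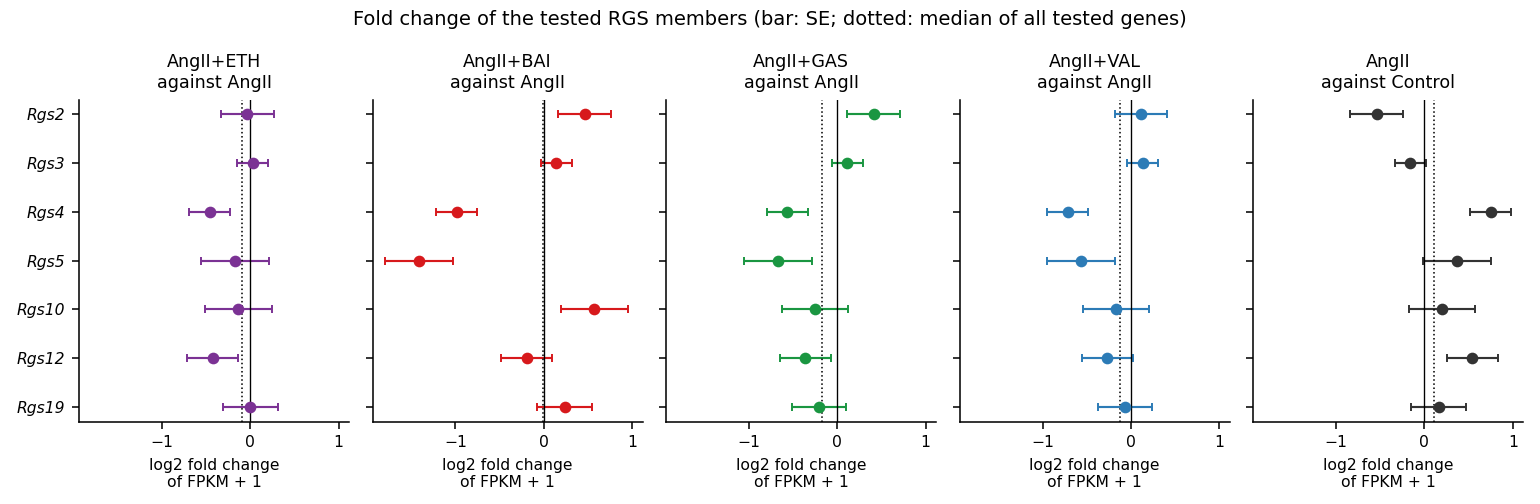
Log2 fold change of FPKM + 1 (x axis) of the 7 tested RGS members in the 5 main comparisons, with bars for the SE from limma and a dotted line at the median of all tested genes. Rgs4 lies left of 0 in all 4 comparisons with AngII (-0.46 to -0.99) and right of 0 in AngII against Control (0.75), and no member passed an adjusted p of 0.05.

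Rgs3, an R4 member that also exists as longer forms, was the steadiest by coefficient of variation (18.0% over the 30 libraries). Its group means were 26.9 ± 7.13 FPKM in AngII+ETH, 28.9 ± 7.02 in AngII+BAI, 28.2 ± 6.12 in AngII+GAS, 28.3 ± 2.40 in AngII+VAL, 25.9 ± 4.48 in AngII and 28.9 ± 3.12 in Control (SD, n = 5 each). The coefficient was 34.8% for Rgs4, 38.7% for Rgs2 and 55.9% for Rgs5.

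The total of Rgs3 was made of 6 transcripts listed for all groups, of which Rgs3-204 and Rgs3-205 are annotated as protein coding and Rgs3-207, Rgs3-209 and Rgs3-214 as retained introns. The protein-coding Rgs3-202 reached 8.99 FPKM in AngII+ETH and 4.30 FPKM in AngII+GAS but was not listed for AngII+BAI or AngII+VAL. Rgs3-216 was listed for AngII+GAS alone (up to 3.09 FPKM) and Rgs3-210 for AngII+VAL alone (up to 3.76 FPKM). The shares below leave these transcripts out. The mean share of Rgs3-204 in the gene's FPKM was 31.5% in AngII+ETH (highest of the 5 libraries 57.5%), 46.0% in AngII+BAI (range 13.5% to 72.7%), 46.6% in AngII+GAS (34.7% to 59.6%), 41.3% in AngII+VAL (18.5% to 65.6%), 30.9% in AngII (9.06% to 64.6%) and 26.0% in Control (14.5% to 33.3%). The lowest AngII+GAS share (34.7%) was just above the highest Control share (33.3%), and the ranges of the other groups overlapped that of Control. Such a gap was not counted over all transcripts. The retained-intron transcript Rgs3-207, singled out after its values were seen, measured 5.72, 6.35, 5.18, 4.58 and 2.76 FPKM in AngII, against 12.5, 11.2, 4.54, 18.3 and 10.5 FPKM in Control. Of the Control libraries 4 were above all AngII libraries, and Control 3 lay within the AngII range. Its share of Rgs3 was 19.6% ± 6.64 in AngII and 39.1% ± 15.4 in Control, and no test was made per transcript. These shares rest on how reads were divided between overlapping transcripts.

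**Figure D3:**
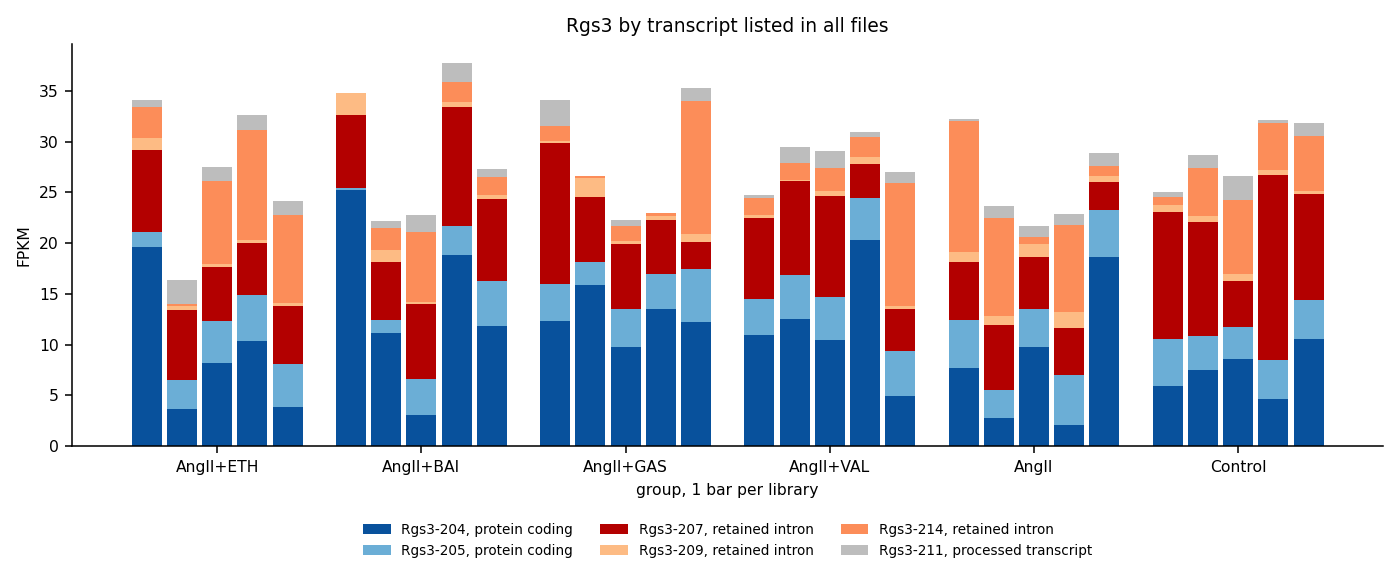
Rgs3 level in FPKM by transcript (colours), with 1 bar per library and groups of 5 bars. The bars reach 16.4 to 37.7 FPKM and their make-up varies, with Rgs3-207 at 4.54 to 18.3 FPKM in Control and 2.76 to 6.35 FPKM in AngII.

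Rgs16, an R4 member induced in activated immune cells, was near 0 in most libraries and reached 1 FPKM in 4 of 30. AngII+BAI 3 and AngII+BAI 5 had 3.29 and 2.87 FPKM, AngII+ETH 4 had 1.53 FPKM and AngII 3 had 4.07 FPKM. The group means were 0.65 ± 0.55 FPKM in AngII+ETH, 1.40 ± 1.54 in AngII+BAI, 0.23 ± 0.15 in AngII+GAS, 0.40 ± 0.21 in AngII+VAL, 1.29 ± 1.57 in AngII and 0.28 ± 0.21 in Control (SD, n = 5 each).

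In the R12 subfamily, Rgs10, a small regulator abundant in macrophages and microglia, was high in 3 of the 5 AngII+BAI libraries. Rgs10 measured 18.5, 4.74, 25.9, 6.48 and 28.0 FPKM in AngII+BAI, against 7.46, 4.23, 11.7, 10.2 and 13.3 FPKM in AngII. The highest 2 were AngII+BAI 5 and AngII+BAI 3, the libraries with the highest macrophage scores. AngII+BAI 1, at 18.5 FPKM, had a macrophage score of 5.15, within the AngII range of 4.44 to 5.63. In the other groups Rgs10 averaged 7.99 ± 1.38 FPKM (AngII+ETH), 7.39 ± 1.99 FPKM (AngII+GAS), 8.43 ± 3.43 FPKM (AngII+VAL) and 7.73 ± 2.15 FPKM (Control).

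Rgs14, which carries Ras-binding domains and a GoLoco motif that binds inactive Gi, had 1.06, 0.35, 5.54, 0.58 and 2.68 FPKM in AngII+BAI, against 0.61, 0.70, 1.02, 0.72 and 0.48 FPKM in AngII. It was below 1 FPKM in 26 of the 30 libraries. Outside AngII+BAI its group means ran from 0.43 ± 0.22 FPKM in Control to 0.71 ± 0.20 FPKM in AngII.

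Rgs12, a large relative with the same kinds of domain, had 2.33, 3.003, 0.67, 1.62 and 0.94 FPKM in AngII, against 0.75, 0.30, 0.97, 1.15 and 0.80 FPKM in Control. The groups overlapped. Its log2 fold change was 0.54 in AngII against Control (SE 0.29, adjusted p = 0.494), -0.43 in AngII+ETH against AngII (SE 0.29, adjusted p = 0.994) and -0.27 in AngII+VAL against AngII (SE 0.29, adjusted p = 0.767), all by limma. The value for AngII against Control was 0.93 with a pseudocount of 0.1 and 0.29 with unlisted transcripts as 0, and that for AngII+ETH was -0.77 and -0.18 under the same settings. Leaving out AngII 2 gave -0.27 for AngII+ETH and -0.11 for AngII+VAL. Its transcripts Rgs12-201 and Rgs12-204 traded shares between 0% and 100% from library to library. These levels leave out Rgs12-208, listed for AngII and Control alone (means 0.36 and 0.61 FPKM). Also left out were Rgs12-202, listed for AngII+ETH alone (0.63 FPKM), and Rgs12-203, listed for AngII+BAI alone (0.52 FPKM).

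Rgs19, the RZ member also called GAIP, acts on Gi/o and Gz. It measured 4.23, 5.54, 23.9, 7.77 and 9.76 FPKM in AngII+BAI, against 6.58, 6.98, 10.1, 3.29 and 11.2 FPKM in AngII. AngII+BAI 3 was the highest of all 30 libraries. The other groups averaged 7.21 ± 1.40 FPKM (AngII+ETH), 6.10 ± 1.23 FPKM (AngII+GAS), 6.90 ± 1.83 FPKM (AngII+VAL) and 6.54 ± 2.32 FPKM (Control). Rgs19-202 was its main transcript, with group mean shares of 53.4% to 61.8%.

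The macrophage list (10 of 10 markers tested) summed to 456 to 2996 FPKM in AngII+BAI, against 366 to 943 FPKM in AngII, and 9 of its 10 genes had a positive fold change with 0 past the threshold. The part of macrophages, or of T and B cells, in the levels of Rgs10, Rgs14, Rgs16 and Rgs19 was not tested. AngII+VAL 2, with a macrophage score of 6.23, had Rgs10 at 11.6 FPKM, the highest of its group, Rgs14 at 0.66 FPKM, Rgs16 at 0.092 FPKM and Rgs19 at 5.97 FPKM.

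**Figure D4:**
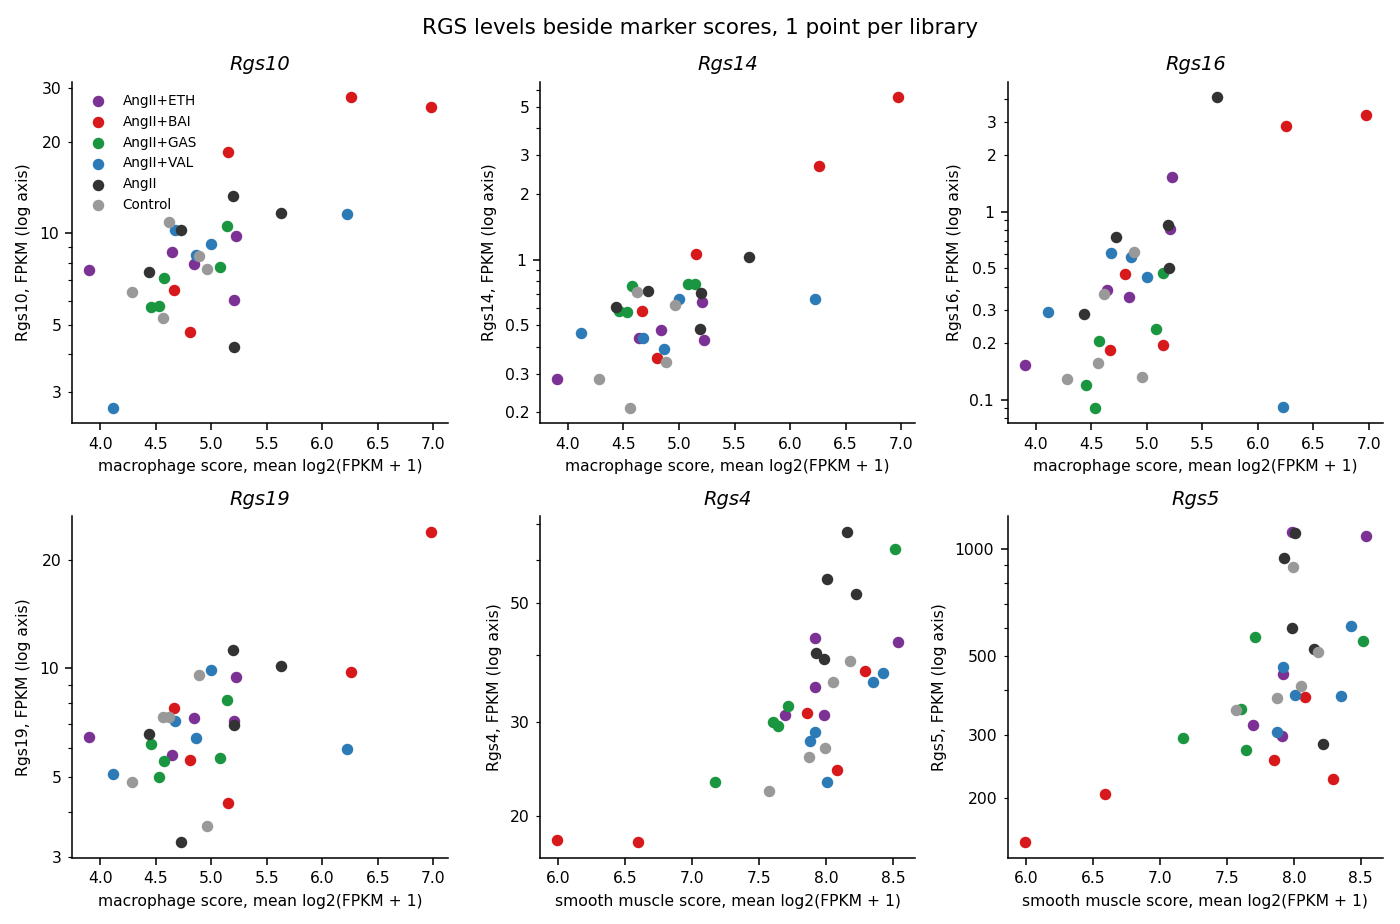
Level of 6 RGS members in FPKM (y, log axis) against the macrophage score (Rgs10, Rgs14, Rgs16, Rgs19) or the smooth muscle score (Rgs4, Rgs5), each score a mean log2(FPKM + 1), with 1 point per library coloured by group. AngII+BAI 3 and AngII+BAI 5 lie at the far right for macrophages (6.98 and 6.26) and at the far left for smooth muscle (5.99 and 6.59).

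Counted over the members, 0 of 7 passed the threshold of limma in each comparison. At an unadjusted p under 0.05 there were 1 in AngII against Control, 0 in AngII+ETH, 2 in AngII+BAI, 1 in AngII+GAS and 1 in AngII+VAL against AngII. Over all 13223 tested genes the counts at that p were 1480 in AngII against Control, and 451 in AngII+ETH, 1936 in AngII+BAI, 1807 in AngII+GAS and 1429 in AngII+VAL against AngII, so that a count of 1 in 7 is near the background. Over all tested genes, the share called at the adjusted threshold was 0.0% in AngII against Control, 0.0% in AngII+ETH, 0.333% in AngII+BAI, 0.0151% in AngII+GAS and 0.0% in AngII+VAL against AngII. Against Control the shares were 0.0% for AngII+ETH, 1.44% for AngII+BAI, 0.00756% for AngII+GAS and 0.0% for AngII+VAL. In those comparisons 1 of the 7 members, in AngII+BAI, had an unadjusted p under 0.05, beside 2511 of the 13223 tested genes in AngII+BAI, 685 in AngII+ETH, 489 in AngII+GAS and 508 in AngII+VAL. The F test for any difference among the 6 groups called 0 members, against 0.0% of all genes, with Rgs4 at an adjusted p of 0.175 and Rgs5 at 0.244 by limma.

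The members' fold changes had a median of 0.20 in AngII against Control (5 positive, 2 negative), beside 0.11 over all genes. The medians against AngII were -0.14 for AngII+ETH, 0.14 for AngII+BAI, -0.25 for AngII+GAS and -0.17 for AngII+VAL, beside -0.09, -0.01, -0.17 and -0.12 over all genes in the same order.

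Of the other family genes, 4 had transcripts listed for all libraries. Rgs7, an R7 member, averaged 11.1 ± 2.45 FPKM over the 30 libraries (SD). Rgs18, an R4 member of platelets and blood cells, averaged 1.11 ± 0.71 FPKM. Rgs17 of the RZ subfamily had 0.50 to 2.48 FPKM in AngII and was listed at 0 in at least 1 library of each other group. Rgs9, the R7 member of retina and striatum, had 3.37, 0.055, 0, 0.89 and 2.90 FPKM in AngII, against 0.23, 0, 0, 0.045 and 0.12 FPKM in Control. The 3 AngII libraries above 0.5 FPKM are those with high neuron scores. Gnb5, the partner of the R7 subfamily, averaged 12.5 ± 2.42 FPKM in AngII and 8.80 ± 1.26 FPKM in Control (SD, n = 5 each), a log2 fold change of 0.46 (SE 0.14, limma adjusted p = 0.219). Rgs1, Rgs6, Rgs8, Rgs13, Rgs20, Rgs21 and Rgs22 were not analysed here.

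Lists of the signalling chain around the RGS proteins held 86 genes, of which 74 were tested. In AngII+BAI against AngII, 1 of the 74 passed and was lower, and in the other main comparisons 0 of 74 passed the limma threshold in either direction. The gene was Gucy1a1, a subunit of the nitric oxide receptor that makes cGMP, with 18.5 ± 5.78 FPKM in AngII+BAI and 36.8 ± 9.81 FPKM in AngII (SD, n = 5 each). Its log2 fold change was -0.99 (SE 0.22, limma adjusted p = 0.047), which was not past the threshold in 11 of 20 alternatives, among them fits without AngII 1, AngII 4, AngII 5 or AngII+BAI 3 (adjusted p 0.029 to 0.806 over the alternatives).

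Among the alpha subunits that RGS proteins act on, Gnai2 of the Gi class had the highest level, with 158 ± 44.6 FPKM in AngII+BAI, 130.0 ± 22.9 FPKM in AngII and 109 ± 10.4 FPKM in Control. Gna11 of the Gq class had 36.6 ± 3.10 FPKM in AngII and 34.9 ± 2.36 FPKM in Control. Gnaq had 16.8 ± 7.60 FPKM in AngII and 9.51 ± 6.28 FPKM in Control (log2 fold change 0.77, SE 0.60, limma adjusted p = 0.66). Of the vasoconstrictor receptors, the thrombin receptor F2r was the highest, at 32.3 ± 8.31 FPKM in AngII and 19.5 ± 3.96 FPKM in Control (limma adjusted p = 0.366). The angiotensin receptor Agtr1a had 7.87 ± 5.18 FPKM in AngII and 3.36 ± 0.42 FPKM in Control (limma adjusted p = 0.366). All of these are SDs over 5 libraries.

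The genes whose levels moved most like a member were sought for members with a mean of at least 5 FPKM, by Pearson's r of log2(FPKM + 1) over the 30 libraries after each group's mean was taken away. They are a description, since libraries of a group share tissue make-up. For Rgs5 they included Hapln1 (r = 0.91, Spearman's rho 0.88) and Hoxa10 (r = 0.89, rho 0.87). Both were low, with means of 0.855 and 3.21 FPKM over the 30 libraries. For Rgs4 they were Cd9 (r = 0.89, rho 0.83), Plpp1 (r = 0.87, rho 0.81) and Endod1 (r = 0.86, rho 0.87). For Rgs2 they were Ppa1, Rcl1 and Hacd2 (r = 0.81, 0.79 and 0.79), and for Rgs3 they were 0610009L18Rik, Cog4 and Qpct (r = 0.70, 0.70 and 0.67). Those of Rgs10 included Pafah1b3 and Incenp (r = 0.82 for both), and Rgs19 had Nelfa, Sf3b4 and Ttyh3 (r = 0.89, 0.84 and 0.82). No member was among another's 3 nearest genes. Rgs4 and Rgs5, neighbours on the chromosome, had r = 0.21 and rho 0.24 with each other.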

How the data were processed

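Total RNA of the abdominal aorta was depleted of ribosomal RNA and built into libraries with a NEBNext Ultra kit, per the labels' protocols. The kit does not keep strand, so antisense and overlapping genes are uncertain. The authors deposited FPKM per transcript, a unit inferred from the values, of which 98.9% to 99.5% of the low ones came within 0.1 read of a whole read. The build was mm10 and limma was used, per the submitters' processing notes, and no aligner or quantifier is named there (not given in the sources used). The files listed 49085 transcripts, 39267 of them in all 30 files, and 14379 GENCODE M21 genes were summed from those. The 13223 genes at or above 1 FPKM in 5 or more libraries entered 1 fit of log2(FPKM + 1), a scale that understates changes of low genes, in limma 3.58.1 (R 4.3.3; trend, robust; 1 mean per group; 24 residual degrees of freedom; two-sided; Benjamini-Hochberg adjusted p). The fit was tested on simulated data. Other values came from pandas 2.3.3 and numpy 2.4.6 under Python 3.11.15, and plots from matplotlib 3.10.9. All listed members were described, and fold changes are given in each main comparison for called members or the 3 with the smallest p, and against Control for 1. Genes most alike are the 3 with the highest Pearson's r after group means were taken away, and some of these genes are not reported here. The members and lists were chosen with earlier results of these data known.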

Additional observations from a re-analysis of the deposited data

Results flagged for a closer look

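Each group of 5 libraries was searched, for each of the 9 members, for a library whose gap to its nearest neighbour was large against the range of the group. Of 54 such groups 4 had one, at a cut of 0.71 for the ratio of gap to range. That cut flags about 1 in 20 groups by chance only where values are normally spread. The ratios were taken on FPKM and not on the log scale, so the count cannot be set against chance. Rgs2 in AngII 4 was at 31.5 FPKM, against 18.0 to 20.9 FPKM in the other AngII libraries (ratio of gap to range 0.786). Rgs4 in AngII+GAS 5 was at 63.0 FPKM, against 23.1 to 32.1 FPKM in the other AngII+GAS libraries (ratio 0.775). Rgs16 in AngII 3 was at 4.07 FPKM, against 0.288 to 0.851 FPKM in the other AngII libraries (ratio 0.851). Rgs19 in AngII+BAI 3 was at 23.9 FPKM, against 4.23 to 9.76 FPKM in the other AngII+BAI libraries (ratio 0.719). The cause was not tested.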

How the results depend on the processing

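The count of members past the threshold stayed at 0 in all comparisons and alternatives other than AngII+BAI against AngII. There it was 1 without the filter, with quantile normalization and with unlisted transcripts as 0, and 0 to 2 when 1 library was left out. Rgs5 in AngII+ETH against AngII turned to 0.041 with neuron and skeletal muscle scores as terms and to 0.43 without AngII 1, 4 and 5, and ran from -0.452 to 0.053 with 1 library left out (0.040 without AngII 5, 0.053 without AngII+ETH 1 and 0.028 without AngII+ETH 3). In AngII+VAL against AngII, with the same terms, Rgs5 turned to 0.24 and Rgs12 to 0.12, and Rgs5 was 0.028 without AngII 1, 4 and 5. Rgs4 in AngII+GAS against Control ran from -0.039 to 0.313 with 1 library left out, the lowest without AngII+GAS 5. The cause was not tested. The fit without AngII 1, 4 and 5 and the smooth muscle and macrophage terms were chosen after seeing the data. Over all tested genes, AngII+BAI against AngII called 0 to 184 genes (main value 44), AngII+BAI against Control 5 to 954 (190), AngII+GAS against AngII 0 to 232 (2), AngII against Control 0 to 64 (0), AngII+VAL against AngII 0 to 19 (0), AngII+ETH against AngII 0 to 1 (0) and the F test 0 to 159 (0). Against Control, AngII+ETH called 0 to 9 (0), AngII+GAS 0 to 8 (1) and AngII+VAL 0 to 24 (0). No paired analysis was possible because the labels carry no replicate numbers. Depth does not limit Rgs2 to Rgs5, each with at least 2855 reads in every library, while Rgs14 and Rgs16 rest on as few as 38 and 16 reads.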

Other observations

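Rgs2 and Rgs4 were often at opposite ends of a group. AngII+GAS 5 had the highest Rgs4 of its group (63.0 FPKM) and the lowest Rgs2 of all 30 libraries (13.4 FPKM), and AngII+GAS 1 had the lowest Rgs4 of its group (23.1 FPKM) and the highest Rgs2 (46.6 FPKM). Control 4 had the highest Rgs2 of all libraries (57.8 FPKM) and the lowest Rgs4 of Control (22.3 FPKM), and AngII+VAL 2 had the highest Rgs2 (36.3 FPKM) and the lowest Rgs4 (23.1 FPKM) of its group. AngII+ETH 1 went the other way, with the highest of both (31.4 and 43.0 FPKM). Over the 30 libraries, with group means taken away, the log2 levels of Rgs2 and Rgs4 had a Pearson's r of -0.59 and a Spearman's rho of -0.55, given as a description because libraries share tissue make-up. The brown adipocyte scores of the libraries named were 5.66 (AngII+GAS 5), 7.45 (AngII+GAS 1), 7.025 (Control 4), 6.69 (AngII+VAL 2) and 6.83 (AngII+ETH 1). AngII+BAI 3 had a high Rgs2 (44.5 FPKM) at a score of 5.985. The part of fat in the opposition of Rgs2 and Rgs4 was not tested. The pattern was noticed in the data and no test of it was made.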
